A study of Macaca mulatta with 10 samples.

Results

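Interferon-stimulated genes and interferon regulatory factors (IRFs) were examined in the livers of brain-dead and living rhesus macaques (Macaca mulatta). A list of 39 genes was used: receptor chains for type I interferon, STAT2, IRFs, and antiviral genes that these factors switch on. Their members were all probe sets of the array whose platform annotation gives a single symbol that is on the list, with no condition on signal. By that rule 30 of the 39 genes were represented, by 67 of the 52865 probe sets of the array, out of 14133 genes named in the same way. No probe set carried the symbol of IFNAR1, IRF9, IFI6, IFI44L, IFIT5, IFITM3, RSAD2, USP18 or HERC5 alone, and these 9 genes were not analysed here. A further 4 probe sets that share a listed symbol with another gene were left out.

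The study compared 5 brain-dead animals with 5 living donors, with 1 array of liver RNA per animal. Brain death was produced by slowly inflating a balloon catheter between skull and dura, and arterial pressure was then held with Ringer's lactate and with arginine-vasopressin, dopamine or both. The brain-dead state lasted 6 h by the sample labels and 5 h by the series' design text. Living donors were sedated, anaesthetised and ventilated for 1 h before recovery, and all livers were flushed in place with cold-storage solution, so drugs and ventilation time cannot be told apart from brain death. Controls were 3 females and 2 males aged 4 to 20 years, and brain-dead animals 2 females and 3 males aged 7 to 18 years, with 1 age not given. No genotype or strain beyond the species is given for any group. The comparison asks how the liver's interferon programme stands at organ recovery after brain death.

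Interferons are cytokines that cells release on sensing viral nucleic acid or on immune activation. Type I interferons bind the receptor of IFNAR1 and IFNAR2, whose kinases activate ISGF3, the factor that holds STAT2 and IRF9 and binds interferon-stimulated response elements. Interferon gamma, made by NK and T cells, has a receptor of its own and induces IRF1, the guanylate-binding proteins and the machinery of antigen presentation. IRF3 and IRF7 drive transcription of the interferons themselves. Hepatocytes, Kupffer cells and endothelium of the liver all respond to both kinds of interferon.

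Array medians lay between 175 and 227 signal units, and precision is set by there being 10 arrays. The 4 hepatocyte markers measured had summed signals of 329613 to 427727 in controls and 301012 to 366112 in brain-dead animals, and none passed the test (limma; unadjusted p under 0.05 for 1 of them, which was lower). Both animals numbered 1 stood apart on the second principal component, with scores of 69.6 and 72.1 against -36.1 to 26.5 in the other animals. For some genes where 1 of them held an extreme value, the change without the pair is given too, but not for every such gene. Ratios of 3' to 5' signal of actin ran from 1.15 to 1.41 over the 10 arrays. Of the markers of other cells, 2 of 4 tested neutrophil genes rose, S100A8 and S100A9. The summed signal of the 5 neutrophil markers on the array was 816 to 5715 in controls and 7531 to 56530 in brain-dead animals, with no marker at 0. In brain-dead animals S100A8 and S100A9 made up most of that sum. Of the other 3 CSF3R had a change of 0.76, ELANE one of -0.38, neither past the test, and MPO lay below the filter. Summed NK cell markers, 4 genes of which none passed, were 8027 to 11455 in controls and 10687 to 17026 in brain-dead animals. KLRD1 made up most of it (change 0.72), while KLRF1, NKG7 and GNLY had changes of -0.02, 0.19 and 0.30. The 2 T cell markers tested, CD4 and CD8A, had changes of -0.13 and -0.25 and did not pass. Of 7 Kupffer cell and macrophage markers none passed, with 1 change above 0, 6 below 0 and a median of -0.33. None of 3 monocyte and 7 endothelial markers passed (limma; unadjusted p under 0.05 for 1 monocyte marker, higher, and 2 endothelial markers, lower). These were VCAN of monocytes, at 1.62 (adjusted p = 0.0549 in limma), and VWF and PECAM1 of endothelium, at -1.86 and -0.76 (0.0953 and 0.107). S100A12, placed on the monocyte list and below the filter, had 21.3 to 78.8 in controls and 103 to 343 in brain-dead animals, without overlap. With no filter its change was 2.48 (adjusted p = 0.0238 in limma). In whole liver, fewer or more cells of a type and less or more RNA per cell cannot be told apart, and the part of these cells in the results below was not tested.

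A minority of the interferon genes passed the test as higher in the brain-dead livers, and most of the genes did not pass. Of the 67 member probe sets, 60 lay above the array median on at least 5 of 10 arrays and were tested, covering all 30 genes, and 7 dim ones were not. With p-values adjusted by Benjamini and Hochberg in limma and 0.05 as the threshold, 10 of the 60 rose, none fell and 50 did not pass. Over all 26653 probe sets tested, 2.72% rose and 3.39% fell, 6.1% in all. At an unadjusted p under 0.05 in limma the 60 included 15 higher and 1 lower, against 11.5% and 12.2% of all probe sets. The 10 probe sets belong to 7 genes, namely PLSCR1, IRF7, IRF1, GBP1, GBP2, DTX3L and PARP9. By the brightest probe set of each gene, 6 of 30 genes rose, against 2.9% of 9835 genes measured. The members were chosen with earlier results of these data known, so these counts describe them and do not test for an excess.

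The median change of the 60 was 0.28 on the log2 scale, with quartiles of -0.21 and 0.60, while all probe sets tested had a median of -0.0027 and quartiles of -0.35 and 0.34. A change above 0 was seen in 40 of the 60 and one below 0 in 20. Groups did not overlap in 6 member probe sets with brain death higher, where all probe sets gave 3.33%, and in 1 with brain death lower, where all gave 3.6%. The count of 10 varied with the arrays used. Omitting control animal 1, 2, 3 or 5 left 6, 3, 4 or 3 of them, and omitting brain-dead animal 2, 4 or 5 left 5, 4 or 3. Calls over all probe sets, 1627 with every array, changed too. They were 852, 658, 755 and 1252 in those control omissions and 1808, 854 and 670 in the brain-dead ones. Without both animals numbered 1 the member count was 7. With no filter on signal it was 4, the calls of GBP1, GBP2, DTX3L and PARP9 being lost (adjusted p = 0.0508 to 0.0678 in limma). The 3 probe sets that kept their call under each of the 24 alternatives were both of PLSCR1 and that of IRF7.

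**Figure D1:**
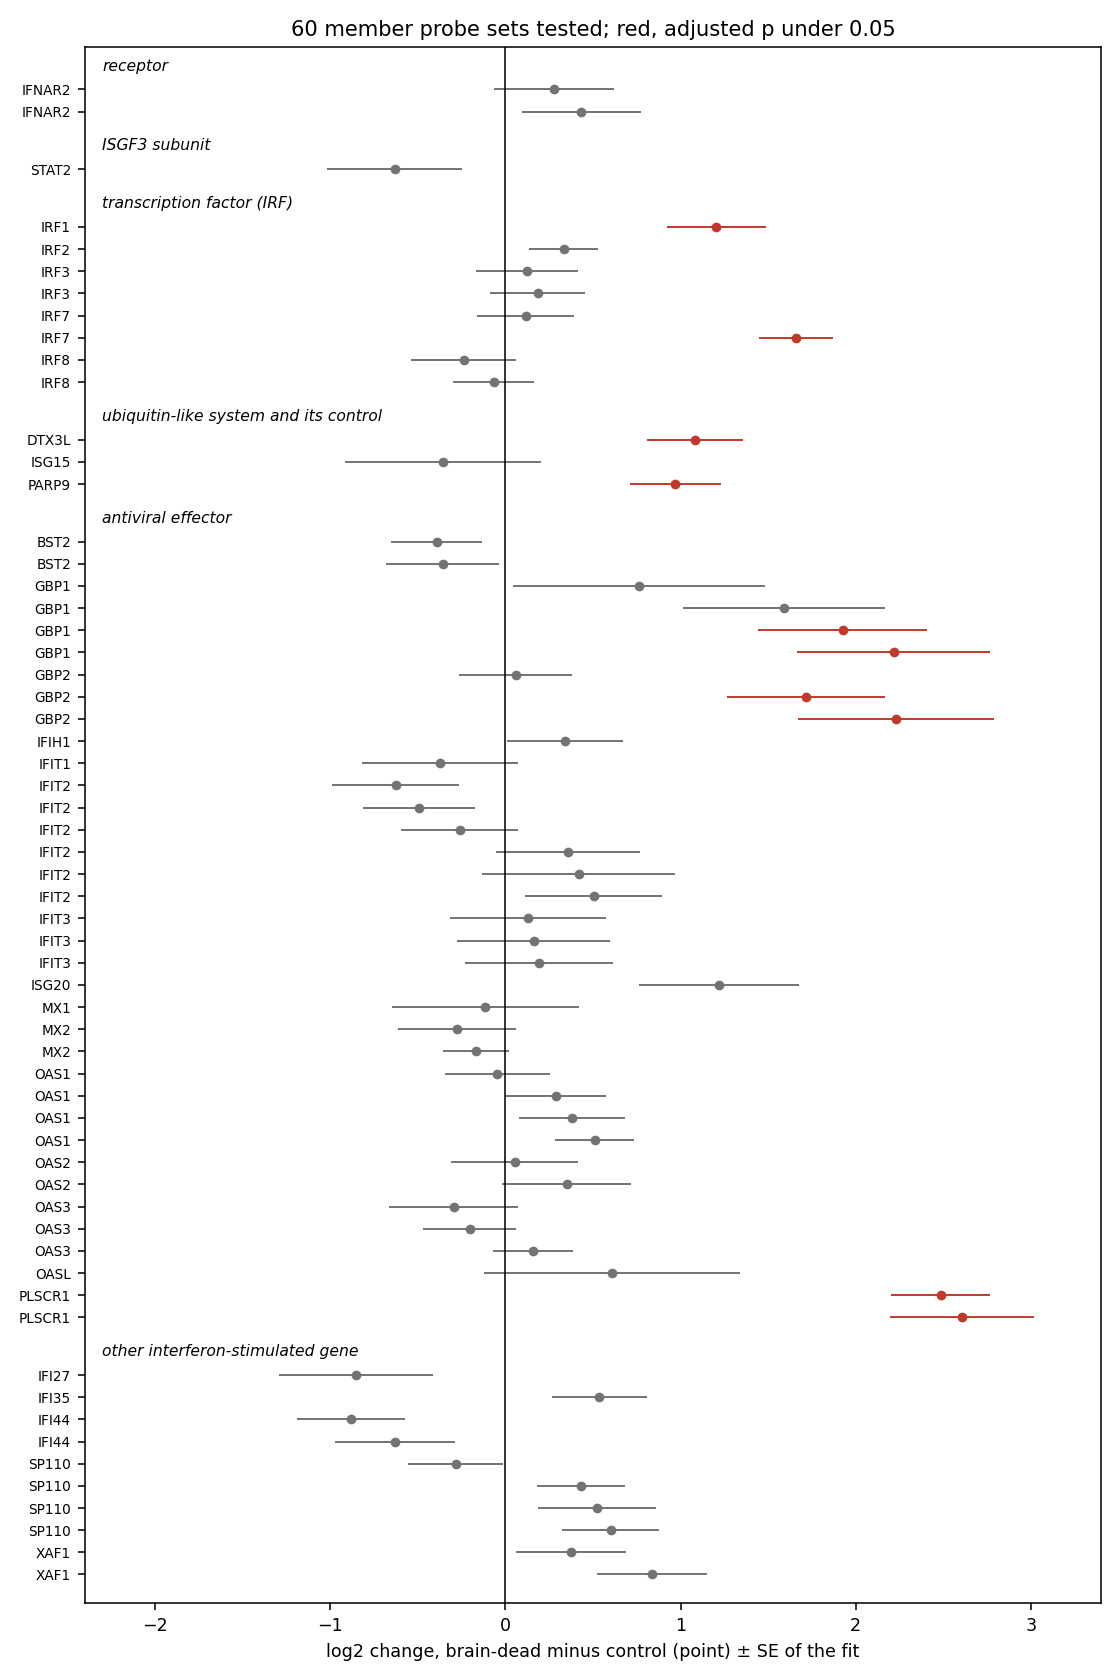
Log2 change (horizontal axis, brain-dead minus control, point with SE of the fit) of the 60 member probe sets tested, 1 row each, labelled by gene and ordered by role; red marks adjusted p under 0.05 in limma. The 10 red points lie between 0.97 and 2.61 and belong to IRF1, IRF7, DTX3L, PARP9, GBP1, GBP2 and PLSCR1, while those of MX1 and IFIT3 lie near 0.

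At the head of the pathway, the receptor chain IFNAR2 did not pass on either probe set. The brighter had signals of 1136, 1038, 2581, 2458 and 2806 in control animals 1 to 5 and of 1706, 3626, 2814, 1732 and 3135 in brain-dead animals 1 to 5, with a log2 change of 0.43 ± 0.34 (SE of the fit, as for each change below, n = 5 animals per group; adjusted p = 0.475 in limma). Groups overlapped, and control animals 1 and 2 were the lowest. The other probe set had a change of 0.28 ± 0.34. STAT2, the subunit that gives ISGF3 its transactivating domain, had a signal of 2491 in control animal 1 and 425 to 907 in the other controls, against 470.2 to 916 in brain-dead animals. Its change was -0.63 ± 0.39 and did not pass (adjusted p = 0.347 in limma), and without both animals numbered 1 it was -0.43. Of 18 ligands listed, probe sets named IFNA21, IFNB1, IFNG, IFNK and IFNL1 were on the array, and each lay below the array median in every animal. IFNB1 had 58 ± 32.5 in controls and 31.6 ± 22.2 in brain-dead animals, and IFNG 44.2 ± 25.7 and 57 ± 20.8 (mean ± SD, n = 5). At such signals no difference in ligand transcripts could be measured.

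Of the 5 regulatory factors, IRF1 and IRF7 rose and IRF2, IRF3 and IRF8 did not pass. IRF7, the factor that amplifies interferon alpha transcription and is itself interferon-induced, gave 665, 650.2, 662, 856 and 857 in control animals 1 to 5. In brain-dead animals 1 to 5 it gave 2736, 2403, 1799, 1892 and 2936, so that the lowest brain-dead value was more than the highest control value. It rose 3.16-fold (log2 change 1.66 ± 0.21; adjusted p = 0.00244, 0.0121 in limma at most over its alternatives). A dimmer second probe set of IRF7, with 240.5 to 539 in controls and 239.8 to 429.6 in brain-dead animals, gave a log2 difference of 0.12 ± 0.28, short of the threshold (0.842).

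IRF1, induced by interferon gamma and through NF-kB and an activator of interferon gamma targets, had signals of 1356, 1515, 1683, 919.7 and 1134 in control animals 1 to 5. The brain-dead animals had 3092, 5662, 2256, 2072 and 2865, all above every control, with animal 2 the highest. The rise was 2.31-fold (log2 change 1.20 ± 0.28; adjusted p = 0.0279 in limma, 0.00725 to 0.0846 across alternatives). Omitting control animal 1, 2 or 5 or brain-dead animal 5 ended the call (adjusted p = 0.0532, 0.0528, 0.0536 and 0.0597 in limma), as did omitting the pair numbered 1 (0.0846), where the change was 1.21.

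The repressor IRF2, which competes with IRF1 for the same sites, had a change of 0.33 ± 0.20 (adjusted p = 0.325 in limma), with 702 to 924 in controls and 734 to 1198 in brain-dead animals. IRF3, a constitutively made factor that is activated by phosphorylation, had changes of 0.12 ± 0.29 and 0.19 ± 0.27 on 2 probe sets. Control animal 4 was the lowest of all 10 on both, at 804 and 528. IRF8, a factor of macrophages and dendritic cells, had changes of -0.24 ± 0.30 and -0.07 ± 0.23, and another probe set with 3 to 144 in controls lay below the filter. Of the IRFs outside the list, IRF5 had a change of -0.04 ± 0.22 and IRF4 lay below the filter.

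PLSCR1, an interferon-induced phospholipid scramblase that restricts virus entry, had the largest rise of the members, seen by both probe sets. The brighter had signals of 2445, 2175, 1814, 5112 and 4241 in control animals 1 to 5. In the brain-dead animals it had 17042, 13626, 14801, 17582 and 19023, a narrow range well clear of the controls. Among controls, animals 4 and 5, the males, were above the 3 females. The rise was 5.6-fold (log2 change 2.48 ± 0.28; adjusted p = 0.00158 in limma, at most 0.0087 over its alternatives). The dimmer probe set gave 329.8, 417, 552, 1708 and 1291 in controls and 3321, 5738, 4141, 3567 and 5002 in brain-dead animals. It rose by 2.61 ± 0.41 (adjusted p = 0.00508 in limma, at most 0.0198 over its alternatives).

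GBP1 and GBP2, guanylate-binding GTPases that coat vacuoles of intracellular microbes and are leading targets of interferon gamma, rose on some of their probe sets, with a wide spread among brain-dead animals. For GBP2, the brightest probe set had 397, 485, 449.8, 549.8 and 446 in control animals 1 to 5. It had 654, 3338, 826, 3161 and 8478 in brain-dead animals 1 to 5. All brain-dead values lay above the controls, with animals 1 and 3 close to them and animal 5 the highest. The log2 change was 2.23 ± 0.56 (adjusted p = 0.0346 in limma, 0.0128 to 0.0775 across alternatives). A second probe set, whose suffix marks possible binding to related transcripts, rose by 1.72 ± 0.45 (0.0411) with the same animals 2, 4 and 5 highest. The remaining one, with 382 to 1131 in controls and 497 to 1355 in brain-dead animals, had a change of 0.06 ± 0.32 and did not pass.

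Both GBP2 calls were lost without control animal 1 (adjusted p = 0.073 in limma for the brighter and 0.0929 for the other), control animal 2 (0.074 and 0.0881), control animal 3 (0.0702 and 0.0678) and control animal 5 (0.0574 and 0.072). They were also lost without brain-dead animal 2 (0.0575 and 0.0685), animal 4 (0.0775 and 0.0862) and animal 5 (0.0634 and 0.0886). With sex in the model they had adjusted p = 0.0504 and 0.0582 in limma, and without both animals numbered 1 the second lost its call (0.0517).

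GBP1 had 4 probe sets tested, of which 2 rose. In the first, control animals 1 to 5 had 1445, 795, 609, 1429 and 370.4, and brain-dead animals 1333, 8673, 2021, 3501 and 9828. Brain-dead animal 1 lay within the controls, animals 2 and 5 far above. The change was 2.22 ± 0.55 (adjusted p = 0.0333 in limma) and that of the second, which has the same stem in its name, 1.93 ± 0.48 (0.0348). The suffix of the second marks possible binding to related transcripts. For the other pair the log2 differences, 1.59 ± 0.58 (a probe set with a suffix of the same meaning) and 0.76 ± 0.72, missed the threshold (0.116 and 0.56). The last of these probe sets was the brightest and represents GBP1 in gene counts. On it brain-dead animal 1, at 703, lay below every control (1270 to 3671). On each of the 4 the highest animals were brain-dead animals 2 and 5. Both calls ended without control animal 2 (adjusted p = 0.0746 and 0.0673 in limma), animal 3 (0.0757 and 0.078) and animal 5 (0.0647 and 0.0675). So they did without brain-dead animal 2 (0.056 and 0.0581), animal 4 (0.063 and 0.0698) and animal 5 (0.0819 and 0.0863). In the RefSeq gene table of the current macaque assembly GBP1 and GBP2 are direct neighbours with 0 protein-coding genes between them, and probe sets of this family can share targets, so values of these paralogs are uncertain.

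PARP9 and DTX3L, an inactive-type ADP-ribosyltransferase and its partner ubiquitin ligase that act together in interferon signalling and DNA repair, both rose. In the same gene table they too have 0 protein-coding genes between them. DTX3L had 3801, 4032, 3790.2, 2729.6 and 2359 in control animals 1 to 5 and 7365, 5935, 4518, 6648 and 12177 in brain-dead animals, without overlap and with brain-dead animal 5 the highest. Its change was 1.08 ± 0.27 (adjusted p = 0.035 in limma, 0.0268 to 0.0863 across alternatives). PARP9 had 2450.0, 1312, 1324, 876 and 1327 in controls and 2545, 2703, 2184, 3026 and 3137 in brain-dead animals. Control animal 1 lay above brain-dead animal 3, and the other controls below every brain-dead animal. The change was 0.97 ± 0.26 (0.043, range 0.0184 to 0.102).

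Omitting control animal 1, 2, 3 or 5 ended the DTX3L call (adjusted p = 0.0549, 0.0591, 0.0617 and 0.0714 in limma), and so did omitting brain-dead animal 1, 4 or 5 (0.0601, 0.0682 and 0.0762) or the pair numbered 1 (0.0863). For PARP9 it was control animal 2, 3, 4 or 5 (adjusted p = 0.0953, 0.0914, 0.0601 and 0.0739 in limma) or any brain-dead animal (0.0631, 0.0599, 0.0588, 0.0933 and 0.102 for animals 1 to 5). ISG15, the ubiquitin-like modifier of the same system, did not pass. It had 1684, 793, 1775, 4987 and 1043 in controls and 340.2, 2294, 1458, 1217 and 2592 in brain-dead animals, with a change of -0.36 ± 0.56 (0.745). Its highest value was in control animal 4 and its lowest in brain-dead animal 1, and without the pair numbered 1 the change was 0.13.

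**Figure D2:**
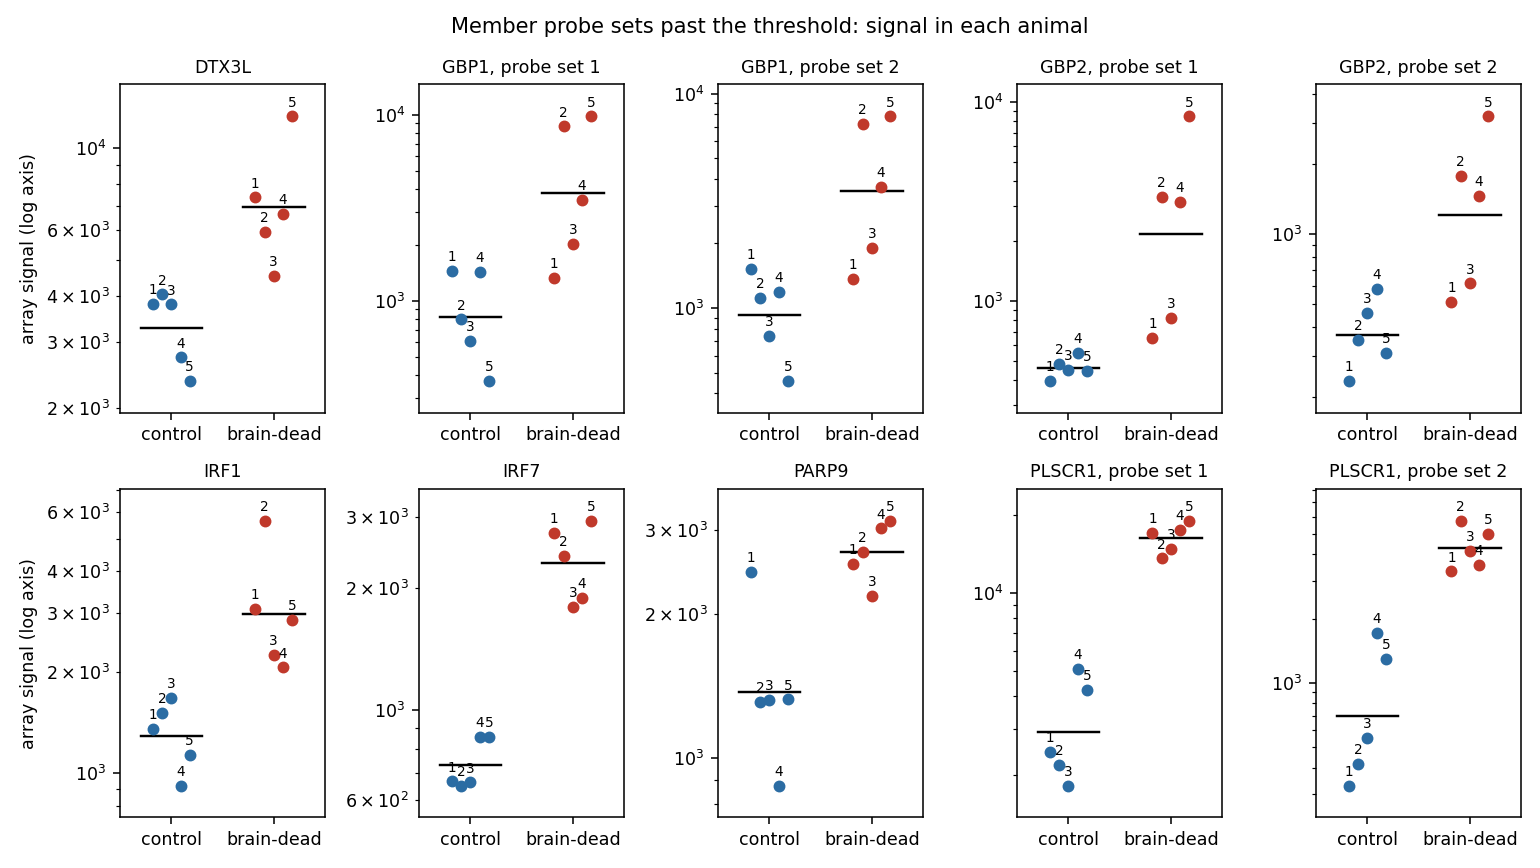
Array signal (vertical log axis) of the 10 member probe sets past the threshold in control (blue) and brain-dead (red) animals, with the animal's number above each point and a bar at the geometric mean of each group. IRF7 and PLSCR1 show groups apart with a narrow range among brain-dead animals, whereas for GBP1 and GBP2 brain-dead animals 2 and 5 are high and animals 1 and 3 near the controls.

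Of 36 antiviral effector probe sets of 15 genes, 6 rose, where 2.72% of all probe sets did, and 30 did not pass. The 6 were those of PLSCR1, GBP1 and GBP2, and the effectors that follow did not pass. MX1, a dynamin-like GTPase that blocks viral nucleocapsids and is a standard readout of type I interferon, had 8986, 1866, 1859, 5327 and 2283 in control animals 1 to 5. In brain-dead animals it had 1404, 3639, 2120.1, 2471 and 9564. The highest value was in brain-dead animal 5 and the next in control animal 1, while the lowest was in brain-dead animal 1. Its change was -0.11 ± 0.53 (adjusted p = 0.925 in limma), and without both animals numbered 1 it was 0.53 and did not pass (0.569). MX2 had changes of -0.17 ± 0.19 and -0.27 ± 0.34 on its 2 probe sets.

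The 2'-5' oligoadenylate synthetases, which activate RNase L, did not pass. The brightest OAS1 probe set had 9300.5, 6469.5, 11070.5, 9297 and 7473 in controls and 12912, 11265, 14876, 8369 and 15046 in brain-dead animals. All brain-dead animals but animal 4 were above every control, and the change was 0.51 ± 0.23 (adjusted p = 0.188 in limma). The other OAS1 probe sets tested had changes of -0.05, 0.29 and 0.38. OAS2 had changes of 0.05 and 0.35 and OAS3 changes from -0.29 to 0.16. OASL, the catalytically inactive relative, had 1793 in control animal 1 and 43.9 in control animal 5, a wider range than the 235 to 786 of the brain-dead animals, and a change of 0.61 ± 0.73 (0.66). Without both animals numbered 1 the OASL change was 1.18 and did not pass (0.316).

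Among the IFIT proteins, which bind viral RNA, the probe sets of IFIT2 disagreed. Of its 6 probe sets, 3 had changes below 0 (-0.63, -0.49 and -0.26) and 3 above 0 (0.36, 0.42 and 0.51), none past the test. One probe set had 2164, 716, 905, 879 and 734 in controls and 737, 2278, 686, 622 and 5378 in brain-dead animals, with brain-dead animal 5 the highest. Another had 2275, 6424, 2300.3, 5959.7 and 3380.1 in controls and 2004, 4352, 2928, 1916 and 1583 in brain-dead animals, with that same animal the lowest. The suffix of this latter probe set marks possible binding to related transcripts, as does that of the probe set at 0.36. These probe sets thus order the animals differently, and which of them follows the transcript was not tested. The 3 probe sets of IFIT3 were alike, with changes of 0.13 ± 0.45, 0.16 ± 0.43 and 0.19 ± 0.42. The brightest had 10717, 6965, 7596, 6885 and 4542 in controls and 3771, 11132, 4315, 6236 and 24830.3 in brain-dead animals. Brain-dead animals 5 and 2 were the highest and animal 1 the lowest. IFIT1 had 2109 in control animal 1, 390.4 to 951 in the other controls and 292 to 1169 in brain-dead animals (change -0.37 ± 0.45; adjusted p = 0.658 in limma). Without both animals numbered 1 the IFIT1 change was 0.25 and did not pass (0.728).

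**Figure D3:**
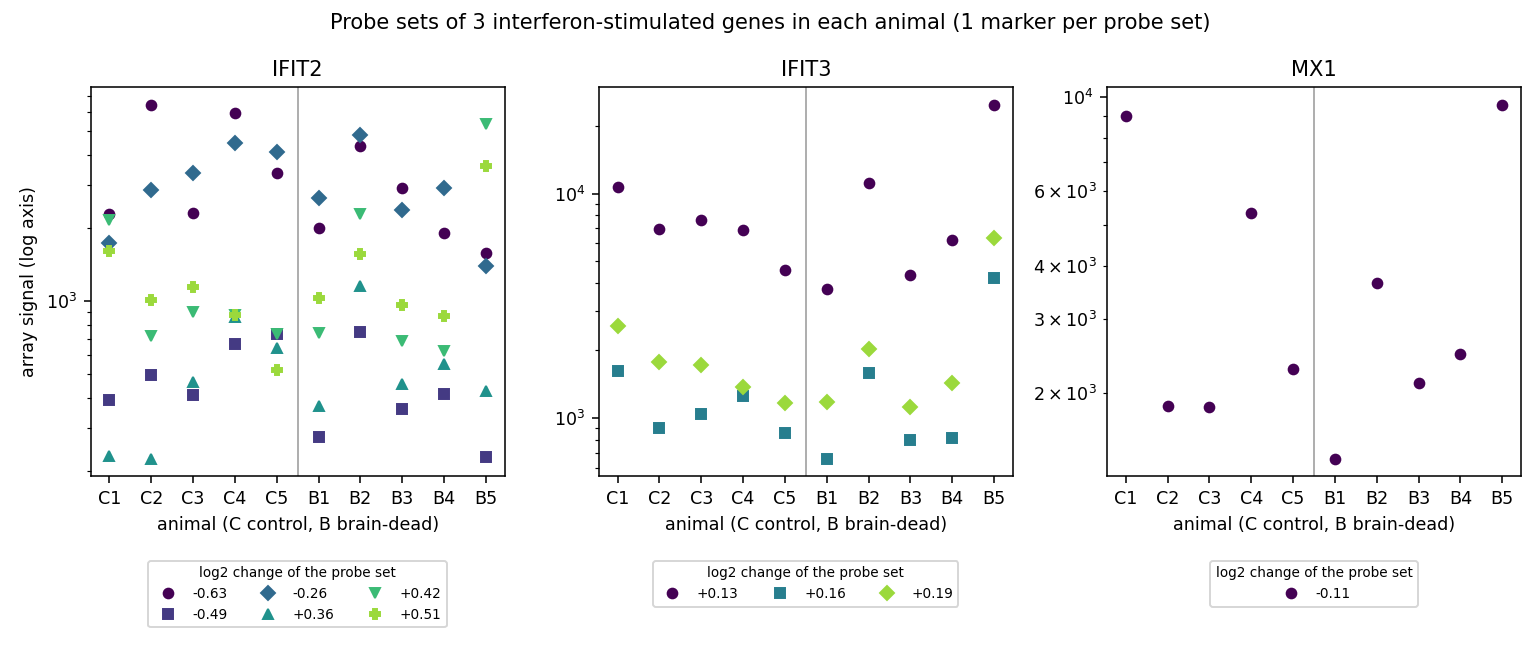
Array signal (vertical log axis) of each tested probe set of IFIT2, IFIT3 and MX1 in control (C1 to C5) and brain-dead (B1 to B5) animals, with 1 marker per probe set and its log2 change in the key. In IFIT3 and MX1 brain-dead animal 5 is the highest, whereas the IFIT2 probe sets with changes of 0.42 and 0.51 are highest in that animal and those of -0.63, -0.49 and -0.26 are lowest in it.

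ISG20, an interferon-induced exonuclease, had 1203, 1934, 1430.1, 2736 and 1454 in controls and 1347, 3431, 3096, 5596 and 11302 in brain-dead animals. All brain-dead animals but animal 1 exceeded the controls, and the change was 1.22 ± 0.45 (adjusted p = 0.124 in limma). Without brain-dead animal 1 it was 1.60 and passed (0.0334). IFIH1, the cytosolic RNA sensor also called MDA5, had 955 to 1680.0 in controls and 1239.7, 3803, 1307, 1181 and 2467 in brain-dead animals 1 to 5. Animals 2 and 5 lay above the controls and the other 3 within them, with a change of 0.34 ± 0.33 (0.572). BST2, which tethers budding virus, had changes of -0.36 ± 0.32 and -0.39 ± 0.26.

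Of the other interferon-stimulated genes none passed, on 10 probe sets of 5 genes. At an unadjusted p under 0.05 in limma 2 of the 10 were higher and 1 lower, against 11.5% and 12.2% of all probe sets tested. IFI44, a cytoplasmic protein induced by type I interferon, was the 1 member whose brain-dead animals all lay below the controls. Its brighter probe set had 6236, 2607, 2964, 6016 and 2784 in controls and 1276, 2147, 2484, 2543 and 2213 in brain-dead animals. The change of -0.88 ± 0.31 did not pass (adjusted p = 0.105 in limma), and the dimmer probe set had -0.63 ± 0.34. Without both animals numbered 1 these changes were -0.53 and -0.56. IFI27, a mitochondrial protein widely used as a marker of interferon exposure, had 5972, 20187, 10229.5, 15932 and 12601 in controls and 2099.5, 8389.8, 6877, 8961 and 11892 in brain-dead animals. Groups overlapped and its change was -0.85 ± 0.44 (0.257). IFI35 had a change of 0.54 ± 0.27 and XAF1, an antagonist of inhibitors of apoptosis, changes of 0.84 ± 0.31 and 0.38 ± 0.31. SP110, a nuclear body protein, had 4 tested probe sets with changes from -0.28 to 0.60.

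High and low signals of the interferon genes gathered in certain animals. Brain-dead animal 5 had the highest of the 10 signals on 22 of the 60 member probe sets (36.7%) and brain-dead animal 2 on 13 (21.7%). Over all 26653 probe sets tested these shares were 14.4% and 7.55%. The lowest signal was found in brain-dead animal 1 and in control animal 5 on 13 probe sets each (21.7%), against 7.66% and 7.27% of all probe sets tested. Relative to each probe set's median over the 10 animals, the members had a median of 0.57 in brain-dead animal 5 and 0.51 in animal 2 on the log2 scale. Animals 1, 3 and 4 had -0.16, 0.023 and 0.087, and controls lay between -0.34 and 0.041. For all probe sets tested these medians were between -0.040 and 0.075 in every animal. Among the 50 probe sets that did not pass, animals 5 and 2 again had the highest medians, 0.50 and 0.31. Probe sets of 1 gene share its transcript, so these counts are not of independent genes.

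Within-group spread of the members was larger than that of probe sets at large in both groups. The median SD on the log2 scale was 0.53 in controls and 0.58 in brain-dead animals over the 60 member probe sets, and 0.43 and 0.42 over all tested. Neutrophil markers summed to 56530 in brain-dead animal 5 and 23558 in animal 2, against 7531, 31343 and 16507 in animals 1, 3 and 4. That list's part in the members' values was not tested.

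**Figure D4:**
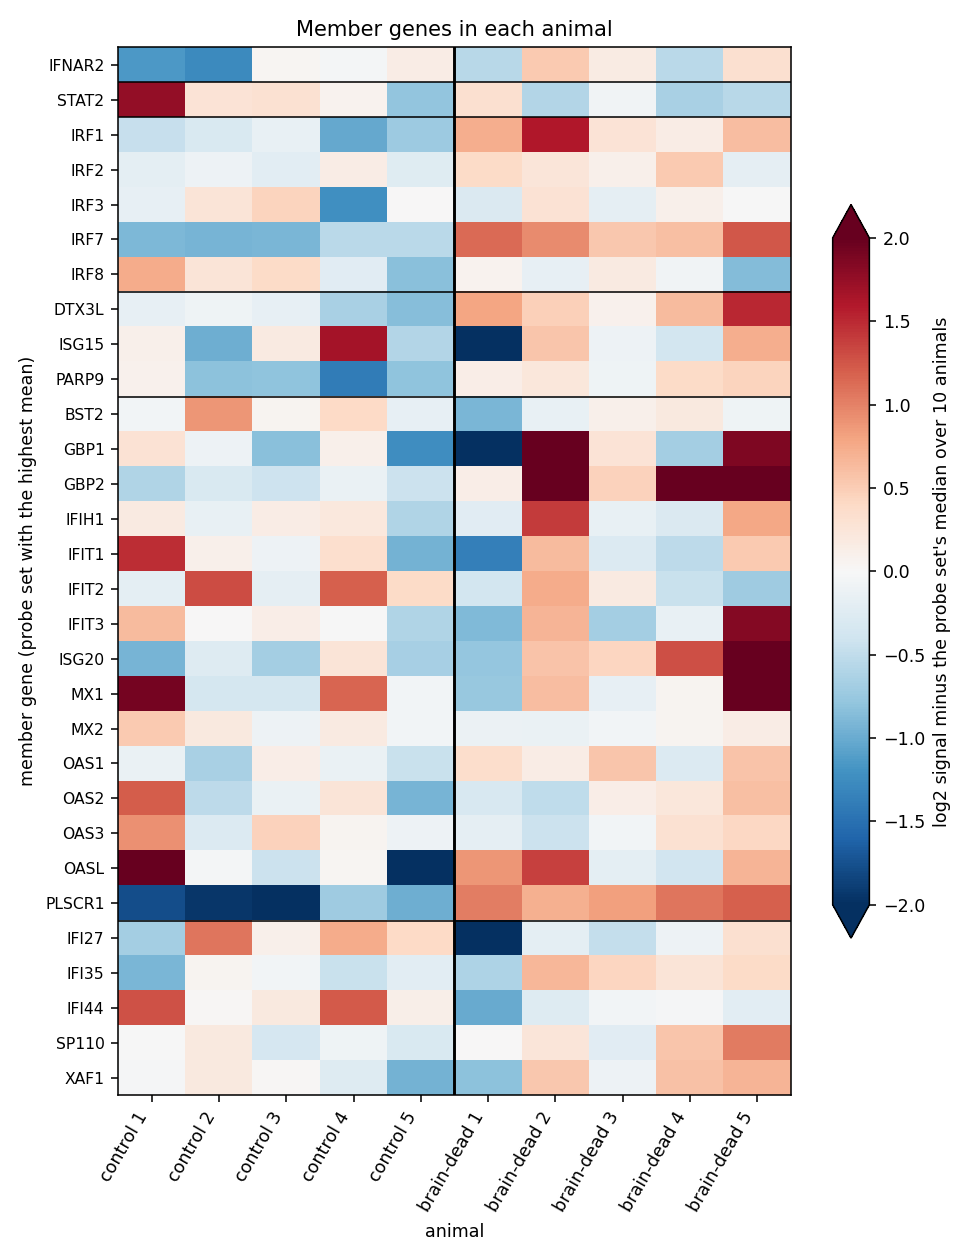
Log2 signal minus the probe set's median over the 10 animals (colour, red higher and blue lower) for each of 30 member genes by its brightest probe set (rows, ordered by role with lines between roles) in each animal (columns, controls left of the line). IRF1, IRF7, DTX3L, GBP2 and PLSCR1 are higher in every brain-dead animal than in any control, and IFI44 is lower. GBP1, GBP2, IFIT3, ISG20 and MX1 are highest in brain-dead animals 2 or 5 and STAT2, IFIT1 and OASL in control animal 1.

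Of the 12 higher calls in the pathway outside the members, 7 were on the list of interferon gamma targets. Among these 7 were CD274, ICAM1 and CXCL9, whose rise the filter favoured, as described below. Of 31 genes on that list 20 were tested, by the brightest probe set of each gene. Of these 7 rose, 1 fell and 12 did not pass, with a median change of 0.75, where 2.9% of all genes measured rose and 3.87% fell. CXCL9, a chemokine of activated T cells, had 779.8, 139.6, 305, 34.4 and 159.5 in control animals 1 to 5 and 433, 4153, 1578, 781 and 1828 in brain-dead animals. Control animal 1 lay above brain-dead animal 1, and the other controls below every brain-dead animal. CXCL9 rose by 2.89 ± 0.73 (adjusted p = 0.0364 in limma, 0.0167 to 0.0885 across alternatives). CD274, the checkpoint ligand PD-L1, had 49.3 to 165 in controls, below the array medians, and 271, 580.3, 362, 263 and 2524 in brain-dead animals. It passed the filter through the brain-dead arrays alone, so it had to differ, and its change of 2.38 ± 0.56 supports nothing here. Without it 6 of 19 genes rose and the list's median was 0.59. ICAM1 rose by 2.46 ± 0.36, and the antigen-processing genes PSMB8 and TAP1 by 1.95 ± 0.41 and 1.42 ± 0.31, each without overlap between groups. For ICAM1 and for CXCL9 only 2 of the 5 controls lay above the array median. Their 5 brain-dead arrays alone met the filter, so it favoured a rise in both, and both are among the 6 of 19 counted. ICAM1 is also a target of NF-kB.

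Omitting control animal 2, 3 or 5 ended the CXCL9 call (adjusted p = 0.0848, 0.0553 and 0.0614 in limma), as did brain-dead animal 2, 3, 4 or 5 (0.0615, 0.0711, 0.0544 and 0.0885). CXCL10, which shares the receptor of CXCL9, had 871 to 8423 in controls and 42014 in brain-dead animal 2 against 3522 to 16125 in the other brain-dead animals. Its change of 2.12 ± 0.67 did not pass (adjusted p = 0.0759 in limma) but did without brain-dead animal 1 (0.0383). CXCL11, another ligand of that receptor, was the gene of the list that fell. It had 28721, 36929, 8860.0, 32033 and 7394 in controls and 8447, 5043, 7814, 6454 and 3094 in brain-dead animals, with a change of -1.68 ± 0.46 (0.0479). Its call was lost under 16 of 24 alternatives (adjusted p up to 0.12), quantile normalization (0.0509) and leaving out control animals 1, 2 or 4 (0.104, 0.118 and 0.0756) or any brain-dead animal (0.0532, 0.0719, 0.0673, 0.0829 and 0.12 for animals 1 to 5) among them.

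Among 33 further type I targets tested, 4 rose, none fell and 29 did not pass, with a median of 0.16, where 2.9% of all genes measured rose. At an unadjusted p under 0.05 in limma 7 were higher and 2 lower, against 11.9% and 13.2% of all genes measured. UBE2L6, the conjugating enzyme for ISG15, had 3637, 4373, 3546, 8656 and 6005 in controls and 10424, 23461, 20495, 27682 and 29616 in brain-dead animals. It rose 4.26-fold without overlap (log2 change 2.09 ± 0.32; adjusted p = 0.0045 in limma, at most 0.016 over its alternatives). NMI, an interferon-inducible partner of STATs, rose by 1.48 ± 0.38 (0.037) and ZNFX1, a helicase-type RNA sensor, by 1.08 ± 0.28 (0.0375). NMI lost its call without any animal but control animal 4 or brain-dead animal 1 (0.0512 to 0.0905), and ZNFX1 on omitting control animal 2, 3 or 5 (0.0846, 0.0917 and 0.0661), brain-dead animal 1, 4 or 5 (0.0664, 0.0645 and 0.0758) or the pair numbered 1 (0.0707). TRIM21, named here after its values were seen, was the other gene that rose (0.74 ± 0.20).

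Of the genes upstream, none of 16 nucleic acid sensing genes passed, with a median of 0.29. At an unadjusted p under 0.05 in limma 2 were higher and 1 lower, against 11.9% and 13.2% of all genes measured. STAT3, IL10RB and JAK2 were tested on the list of receptors and kinases and did not pass, with a median of 0.58. Of these 3, 2 were higher and none lower at an unadjusted p under 0.05 in limma, where all genes measured gave 11.9% and 13.2%. STAT3 had 3092 to 8642 in controls and 8704 to 16029 in brain-dead animals, without overlap, and a change of 1.05 ± 0.32 (adjusted p = 0.0683 in limma). TYK2 lay below the filter, and JAK1, IFNGR1, IFNGR2, DDX58 and PSMB9 were not analysed here. Among 16 brakes on interferon signalling 1 rose, SOCS3, and 1 fell, the RNA-binding protein ZFP36 (-2.16 ± 0.40, adjusted p = 0.011 in limma). Of all genes measured 2.9% rose and 3.87% fell. SOCS1, the feedback inhibitor most tied to interferon gamma, had a change of 0.36 ± 0.23 and did not pass (0.38). SOCS3 had 288 to 458 in controls and 2089, 657, 2917, 1818 and 1997 in brain-dead animals, a rise of 2.19 ± 0.34 (0.0045) that was smallest in brain-dead animal 2. The ZFP36 call ended without both animals numbered 1 (0.0521).

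**Figure D5:**
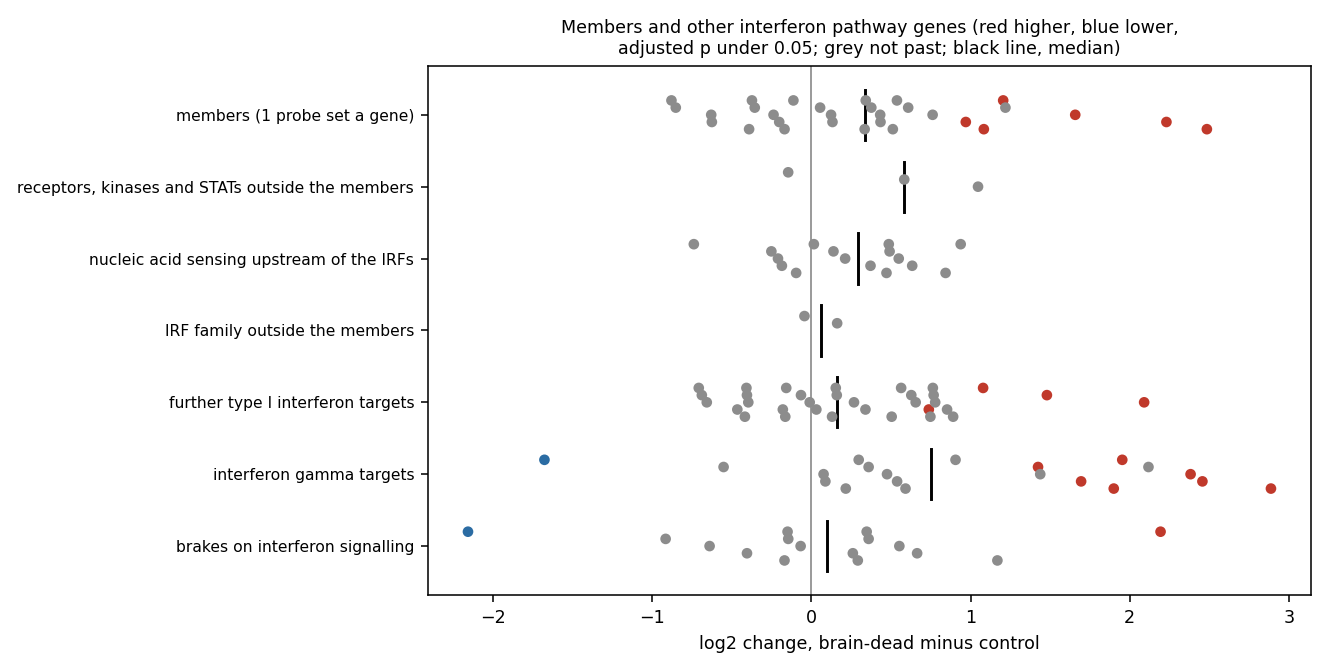
Log2 change (horizontal axis, brain-dead minus control) of the 30 member genes and of 6 lists of other interferon pathway genes, 1 point per gene tested by its brightest probe set; red points rose and blue points fell at adjusted p under 0.05 in limma, and the black line is the list's median. The medians are 0.34 for the members, 0.75 for targets of interferon gamma (0.59 without CD274) and 0.16 for further type I targets.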

How the data were processed

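The values the authors deposited are linear intensities, MAS5 signal per the submitters' processing notes (no version is named there); their 2% trimmed mean was 1000 on every array. Values were put on a log2 scale without pseudocount or further normalization. Names came from GEO's platform annotation, and 64 of the 67 member probe sets matched a gene of the RefSeq table. Control probe sets (99) were left out, and those above the array median on 5 or more of the 10 arrays were tested. Groups were compared in R 4.3.3 with limma 3.58.1 (group as the only term, eBayes with trend); p-values of all 26653 were adjusted together by Benjamini and Hochberg, and 0.05 was the threshold. It was tested on simulated data. Figures used matplotlib 3.10.9.

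In gene counts the probe set with the highest mean represents a gene. Every member was to be named, with up to 3 called genes of each other list and 15 fixed genes. The members and lists were chosen with earlier results of these data known. Alternatives covered normalization, pseudocounts of 16 and 64, filters, sex, age (which drops the animal of unknown age), a replicate block, eBayes settings, array weights, the threshold and leaving out arrays. Promoter and protein sequences were not used here, so a planned motif search was not run.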

Additional observations from a re-analysis of the deposited data

Results flagged for a closer look

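In 4 of 146 groups of 5 animals tested on single probe sets, 1 animal lay further from the rest than Dixon's 95% critical value of 0.71 allows, where chance gives about 1 in 20 groups. All 4 involve animals numbered 1, 3 of them control animal 1 and 1 of them brain-dead animal 1. Control animal 1 had a signal of 2164 on an IFIT2 probe set, where the next control had 905. It also had 447 on the dimmer MX2 probe set, where the next had 303, and 904 on that of NMI, where the next lowest had 2446. Brain-dead animal 1 had 1276 on the brighter IFI44 probe set, where the next lowest brain-dead animal had 2147.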

How the results depend on the processing

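Both PLSCR1 probe sets and that of IRF7 kept direction and call in all alternatives run, the other 7 called member probe sets kept their direction but lost the call in 5 to 12 of them, and 18 of the 50 not called changed sign in at least 1. The 10 member calls became 4 with no filter, where more probe sets are tested, and 3 to 9 when 1 array was left out. Without both arrays numbered 1, all calls became 685 and lower calls among pathway genes 0. Calls over all probe sets, 1627 in the main test, were 1056 with no filter, 1029 with sex and age in the model, 3138 at an adjusted p under 0.10 and 658 to 2293 with 1 array left out. Higher calls among pathway genes outside the members, 12, were 7 with the 75th percentile filter, 7 with sex and age, 18 with the replicate block, 17 at an adjusted p under 0.10, and 6 to 12 with 1 array left out. Lower calls among them, 2, were 1 with quantile normalization, median centring, no filter, sex alone or with age, eBayes without trend or array weights, 3 with the replicate block or at an adjusted p under 0.10, and 1 to 2 with 1 array left out; the cause was not tested. The median member change stayed between 0.17 and 0.45. Same-numbered animals of the groups shared deviations only in part (correlations of 0.38, 0.064, 0.13, 0.089 and 0.13 for numbers 1 to 5, over 0.1 in 3 of 5 pairs, and 1 of 5 controls correlated best with its own number), so the numbers were not treated as pairs. With the replicate block 3013 probe sets were called, 10 member probe sets higher and 1 lower (IFI27, adjusted p = 0.0413 in limma), and CXCL10 passed (0.00865). Signal near background limits the ligands and the 7 dim member probe sets, for which only levels are known.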
